A study of Mus musculus with 12 samples.

Results

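The comparison set cardiomyocytes from mice with a treated kidney and heart disease model against cardiomyocytes from healthy controls. It took in all 6 libraries that the labels place in these groups, out of 12 in the series, and 15004 genes with enough counts to test, out of 22584 in the table. The first group, called CKD JV001 below, came from hearts of wild-type C57BL6 mice kept for 12 weeks on a regime of AngII with a high salt diet after the loss of 1 kidney (uninephrectomy) and injected with JV001. The second, called sham saline, came from wild-type C57BL6 mice 12 weeks after a sham operation, injected with saline. Each group had 3 libraries. CKD saline (the same model with saline, its duration not given in the labels) and sham JV001 (sham operation with JV001), also with 3 libraries each, entered the fit and are cited where they show where a gene stood. JV001 is a code name, in a series whose title speaks of telomere recapping by gene therapy in cardiorenal syndrome. The 2 groups differ in both the disease model and JV001, so a difference between them cannot be assigned to either. The labels do not give sex, age or dose, and do not say that replicates were separate animals, so the spread behind each p-value is that of these samples and may be technical.

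As background, angiotensin II with salt loading and loss of a kidney raises blood pressure and loads the heart. Cardiomyocytes work by sarcomeres and calcium cycling, and draw most of their energy from fatty acid oxidation in mitochondria. Loaded or injured myocardium commonly shows more fibroblast activity with matrix deposition driven by TGF-beta, entry of leukocytes, interferon and NF-kB target genes, and a shift in cardiomyocytes toward natriuretic peptides and fetal contractile genes. Shelterin is the protein complex that caps telomeres, and telomerase, with Tert as its catalytic subunit, extends them.

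The 6 libraries held 30923371 to 37000337 counts each, and the other 6 held 25233561 to 34465822. Where a library shows 0 counts, up to 3 are possible, or 0.0777 to 0.0964 CPM (counts scaled to a library total of 1000000) in sham saline and 0.0796 to 0.0950 CPM in CKD JV001. This limit covers counting error only. Of 12 ventricular cardiomyocyte markers, 12 were detected in each library, with summed levels of 85170 to 115300 CPM in sham saline and 28690 to 63740 CPM in CKD JV001. Markers of other cell types were present too, as given below, so the preparations were not cardiomyocytes alone. A few libraries stood apart from their own groups. CKD JV001 library 3 had the lowest ventricular sum (28690 CPM) and the highest neutrophil sum (411 CPM, against 18.8 and 20.6 CPM in libraries 1 and 2). Sham saline library 1 lay away from the other sham saline libraries, with higher endothelial markers (1701 CPM against 486 and 701 CPM). CKD saline library 3 also differed from its group, with a fibroblast sum of 2459 CPM against 627 and 653 CPM. Where CKD JV001 library 3 moves the median of a gene list widely, the median without it is given too.

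How far treated disease lay from the healthy state was first measured over all genes tested, as the root mean square difference in log2 CPM between pairs of libraries. The 3 sham saline libraries lay 0.696 to 0.982 from each other. The 9 distances between CKD JV001 and sham saline libraries ran from 0.810 to 1.814, with a median of 1.213. CKD JV001 library 1 lay 0.818, 1.173 and 1.213 from sham saline libraries 1, 2 and 3, and library 2 lay 0.810, 1.175 and 1.218 from them. Both were closer to sham saline library 1 than that library was to its own group. Library 3 lay 1.402, 1.774 and 1.814 away, farther from every sham saline library than any other library of the series. CKD JV001 libraries 1 and 2 were 0.530 apart, the closest pair of the whole series, and library 3 lay 1.10 and 1.124 from them. The median distance to sham saline was 0.898 for CKD saline and 0.776 for sham JV001. These 3 medians share the sham saline libraries, and no test of their order was made. The CKD saline libraries were not alike. CKD saline library 3 lay 0.950, 1.255 and 1.292 from sham saline libraries 1, 2 and 3, farther than CKD JV001 libraries 1 and 2 did. It lay 0.6885 and 0.6642 from CKD JV001 libraries 1 and 2. On the first principal component, which held 52.3% of the variance, sham saline lay at -0.586, -67.3 and -74.5 and CKD JV001 at 48, 50.3 and 138, without overlap. CKD saline libraries 1 and 2 lay at -51.5 and -50.1 there, and library 3 at 62.5, within the CKD JV001 range.

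**Figure D1:**
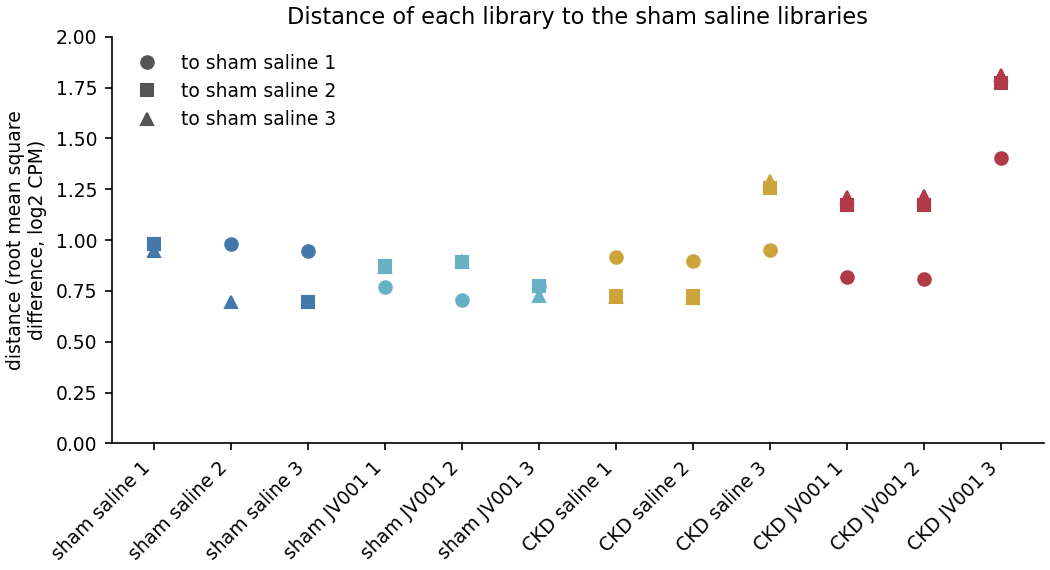
Root mean square difference in log2 CPM (vertical axis, from 0) between each library (horizontal axis, coloured by group) and the 3 sham saline libraries (circle, square and triangle for libraries 1, 2 and 3). CKD JV001 library 3 lies highest, at 1.402 to 1.814, and CKD JV001 libraries 1 and 2 are nearest to sham saline library 1.

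Across all genes, edgeR's quasi-likelihood test called 44 of 15004 genes (0.293%) at a Benjamini-Hochberg adjusted p under 0.05. Of these, 33 fell (0.22% of genes tested) and 11 rose (0.0733%) in CKD JV001. The called genes that fell had a median log2 fold change of -1.30, from -2.88 to -0.80. Those that rose had a median of 3.06, from 1.26 to 5.83. In 44 of the 44 the values of the groups did not overlap, which was also so for 45.9% of all genes (23.9% higher and 22% lower in CKD JV001). The count of 44 stands on the edge of a step: the smallest adjusted p was 0.0369, and 762 genes (365 higher, 397 lower) lay under 0.051. An unadjusted p under 0.05 was reached by 5723 genes (38.1%). DESeq2 called 2498 higher and 1534 lower (25.5% of the genes it tested), limma voom with library weights 3805 and 3002, and limma on log2(FPKM + 1) 1506 and 643.

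The balance between directions differed between settings. Of the 44 calls 25% were higher. With RLE size factors in place of TMM, 526 genes were called higher and 478 lower (52.4% higher). With TMM kept, the share of higher calls was 53.5% under a stricter filter on low counts and 65.3% with no filter. The median over all genes was 0.01 with TMM and 0.04 with RLE. The 44 genes were called again by DESeq2, RLE factors and voom, and 39 of the 39 that limma tested on FPKM were called there. No call was left in edgeR fits without CKD JV001 library 1, 2 or 3 or sham saline library 2 or 3, and 1895 higher and 954 lower genes were called without sham saline library 1. The smallest adjusted p without CKD JV001 library 3 was 0.0799, with 3948 genes at an unadjusted p under 0.05. The 44 genes kept their direction in each of the 6 fits that left out a library. Groups that do not overlap fix this beforehand, so it says nothing on how stable the calls are. Without CKD JV001 library 3 the ratio of their log2 fold change to that with it had a median of 0.912 (0.793 to 1.157). Folds of at least 2 (a log2 fold change of 1 or more in size) were seen in 3186 higher and 992 lower genes, most of them not called. The median SE of the called genes was 0.235 on the log2 scale, against 0.313 for all genes, although some called genes, such as Ltbp2 and Rp1, had a larger one (0.50 and 0.48).

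**Figure D2:**
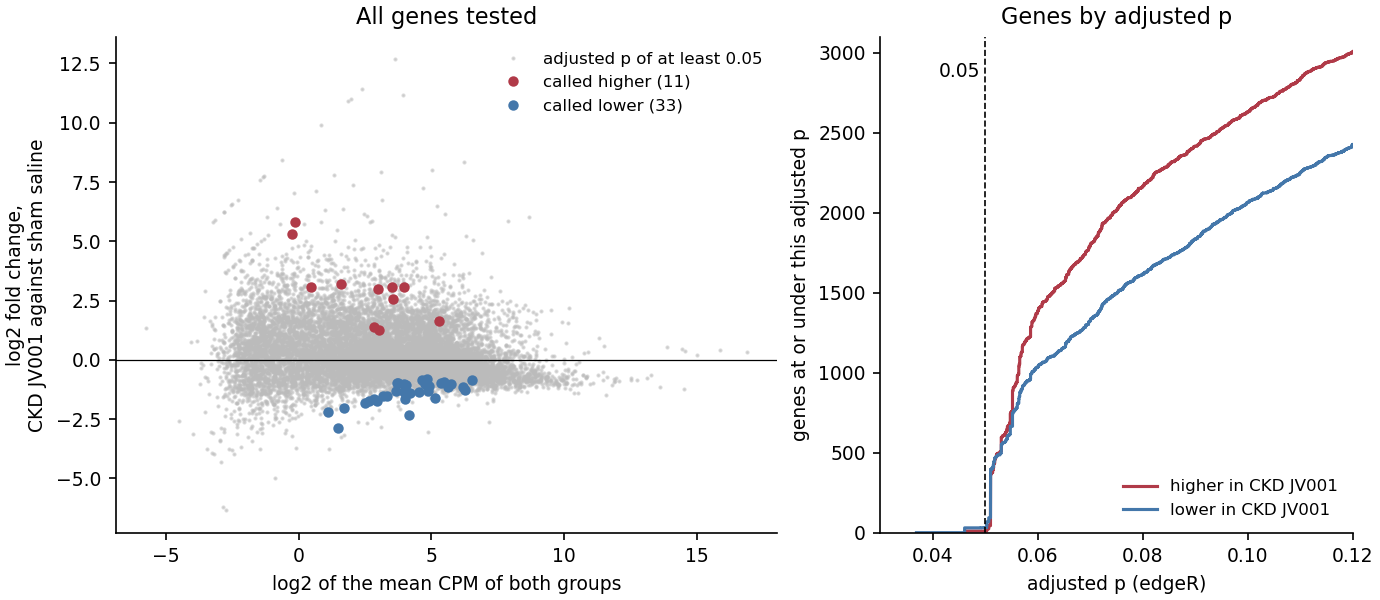
Left, log2 fold change of CKD JV001 against sham saline (vertical axis) by the log2 of the mean CPM of both groups (horizontal axis) for the 15004 genes tested, with 33 called lower in blue and 11 called higher in red. Right, how many genes lie at or under each adjusted p, by direction: 44 genes lie left of the dashed line at 0.05 and 762 lie under 0.051.

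Cenpf, a kinetochore protein made by dividing cells, had the smallest p. Its level was 24.9, 37.5 and 27.7 CPM in sham saline against 6.27, 4.35 and 7.19 CPM in the treated model. The lowest sham saline library was above the highest CKD JV001 library. Cenpf fell 5.06-fold (log2 fold change -2.34 ± 0.27 SE, adjusted p 0.0369 by edgeR, n = 3 per group). In the cell cycle list it was the only gene of 30 tested that edgeR called. Of the 30, 6 had an unadjusted p under 0.05, a share below the 38.1% over all genes. DESeq2 called 5 (4 of them higher in CKD JV001), voom 9 (6 higher) and limma on FPKM 3. In edgeR's fit 22 of the 30 had a fold change above 0, with a median of 0.36, or 0.02 without CKD JV001 library 3. CKD saline lay in between, at a mean of 10.1 ± 0.621 CPM (SD, n = 3). Below is the upstream sequence of the gene, which shows the CCAAT boxes that many cell cycle promoters share. It covers the 250 bases before the RefSeq start site at chr1:189688087-189688336 on the minus strand (GRCm38.p6), 5' to 3', with CCAAT on either strand in capitals.
Cenpf: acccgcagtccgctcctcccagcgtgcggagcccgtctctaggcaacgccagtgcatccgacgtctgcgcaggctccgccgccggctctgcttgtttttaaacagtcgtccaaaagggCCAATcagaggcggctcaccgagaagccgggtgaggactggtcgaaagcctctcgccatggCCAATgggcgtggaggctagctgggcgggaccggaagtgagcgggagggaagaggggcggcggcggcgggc
CCAAT or its complement ATTGG occurred in such windows of 19 of the 25 tested cell cycle genes found in RefSeq (76.0%), in 7 of 20 called lower genes found there (35.0%), in 37.5% of all 27025 promoters of the table and in 39.6% of the genes tested. An E2F-type sequence, TTTNGCGC on either strand, was in 3 of the 25 (12%), in 1.31% of all and in 2.15% of the genes tested. A match is a description of letters, and binding was not measured.

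The other large decreases were in genes of low to moderate level. Rp1, a microtubule protein best known from photoreceptors, was at 7.55, 3.00 and 4.25 CPM in sham saline and 0.380, 0.584 and 1.03 CPM in CKD JV001, and fell 7.38-fold (log2 fold change -2.88 ± 0.48). Prlr, the prolactin receptor, was at 9.16, 7.40 and 10.2 CPM against 3.26, 2.89 and 1.53 CPM, and fell 3.48-fold. Lgr6, a receptor for R-spondins that potentiates Wnt signalling, was at 53, 43.1 and 64.3 CPM against 18.8, 21.9 and 11.2 CPM, and fell 3.09-fold. In each of these the groups were well apart, and CKD JV001 library 3 was the lowest for Prlr and Lgr6 and the highest of its group for Rp1. Lamb3, the beta-3 chain of laminin-332, was at 15.0, 13.9 and 15.9 CPM against 5.79, 6.26 and 3.67 CPM. Cspg4b fell with a log2 fold change of -2.04, Ndnf, a secreted factor, with -1.74 and Ubxn10 with -1.72. Slc6a17, a neurotransmitter transporter, fell with -1.63, Lingo3 with -1.53 and Tnik, a kinase of the Wnt pathway, with -1.40. For each gene of this paragraph the adjusted p by edgeR was 0.0460.

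Several called genes serve metabolism, cyclic nucleotide signalling and iron export in heart muscle. Pde3a, a phosphodiesterase that breaks down cyclic AMP in cardiomyocytes, was at 101, 109 and 94.7 CPM in sham saline and 48, 52.4 and 38.4 CPM in CKD JV001. It fell 2.19-fold (log2 fold change -1.13 ± 0.16, adjusted p 0.0460 by edgeR). Its libraries varied little within each group, and CKD saline stood near CKD JV001, at 54.3 ± 8.38 CPM (SD, n = 3). Slc40a1, the iron exporter ferroportin, was at 18.4, 23.8 and 24.4 CPM against 10.4, 12.2 and 9.68 CPM and fell 2.06-fold. CKD saline was at 12.1 ± 1.05 CPM, again close to the treated group. A further group of called genes was picked out for description after their values were seen. Tbc1d4, which controls GLUT4 trafficking, was at 101, 116 and 115 CPM against 52.1, 53.5 and 32.3 CPM. Ppp1r3b, a glycogen-targeting subunit of protein phosphatase 1, was at 26.6, 35.5 and 38.9 CPM against 13.5, 15.6 and 9.98 CPM. Gata6, a cardiac transcription factor, was at 53.4, 58.2 and 54.4 CPM against 29.1, 30.3 and 24.0 CPM. All 3 fell, with log2 fold changes of -1.26, -1.37 and -0.99, and in each CKD JV001 library 3 was the lowest.

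The genes that rose included secreted, matrix and immune genes. Ltbp2, a matrix glycoprotein of the latent TGF-beta binding protein family, was at 3.28, 2.04 and 2.05 CPM in sham saline and 23.7, 24.7 and 13.6 CPM in CKD JV001. It rose 8.42-fold (log2 fold change 3.07 ± 0.50, adjusted p 0.0460 by edgeR), and library 3 was the lowest of the treated libraries. Ptger4, a receptor for prostaglandin E2, was at 4.34, 2.57 and 3.27 CPM against 20.5, 20.4 and 18.8 CPM, and rose 5.87-fold. The treated libraries of Ptger4 hardly differed, and CKD saline was at 17.9 ± 9.14 CPM (SD, n = 3). Htra4, a secreted serine protease, was at 0.803, 0.557 and 0.389 CPM against 4.59, 5.20 and 6.49 CPM. Inmt, a methyltransferase, was at 4.72, 4.14 and 1.11 CPM against 29.1, 34.2 and 19.8 CPM. Both rose without overlap, with log2 fold changes of 3.22 and 3.06. Fibin, a secreted protein, rose with 3.00, Tspan4, a tetraspanin of migrasomes, with 1.64, Fam124a with 1.37 and Sts, the steroid sulfatase, with 1.26.

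The 2 called genes with the largest folds rest on few reads in sham saline. Ccl5, a chemokine that attracts T cells and monocytes, had 1 count in each sham saline library and 35, 38 and 112 counts in CKD JV001. The ratio of its pooled counts per depth was 64.1, with a 95% interval of 21.6 to 314 that covers counting error only. Tlr6, which senses bacterial lipopeptides together with Tlr2, had 2, 1 and 1 counts against 20, 49 and 101, a ratio of 44.2 (16.9 to 164). Both rose (adjusted p 0.0460 by edgeR), and both were highest in CKD JV001 library 3. Both passed the count filter only through groups other than sham saline. The filter thus favours a rise in such genes, and these 2 calls are descriptive only. Their fitted log2 fold changes, 5.83 and 5.30, depend on the prior count, and were 5.06 and 4.54 without that library.

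**Figure D3:**
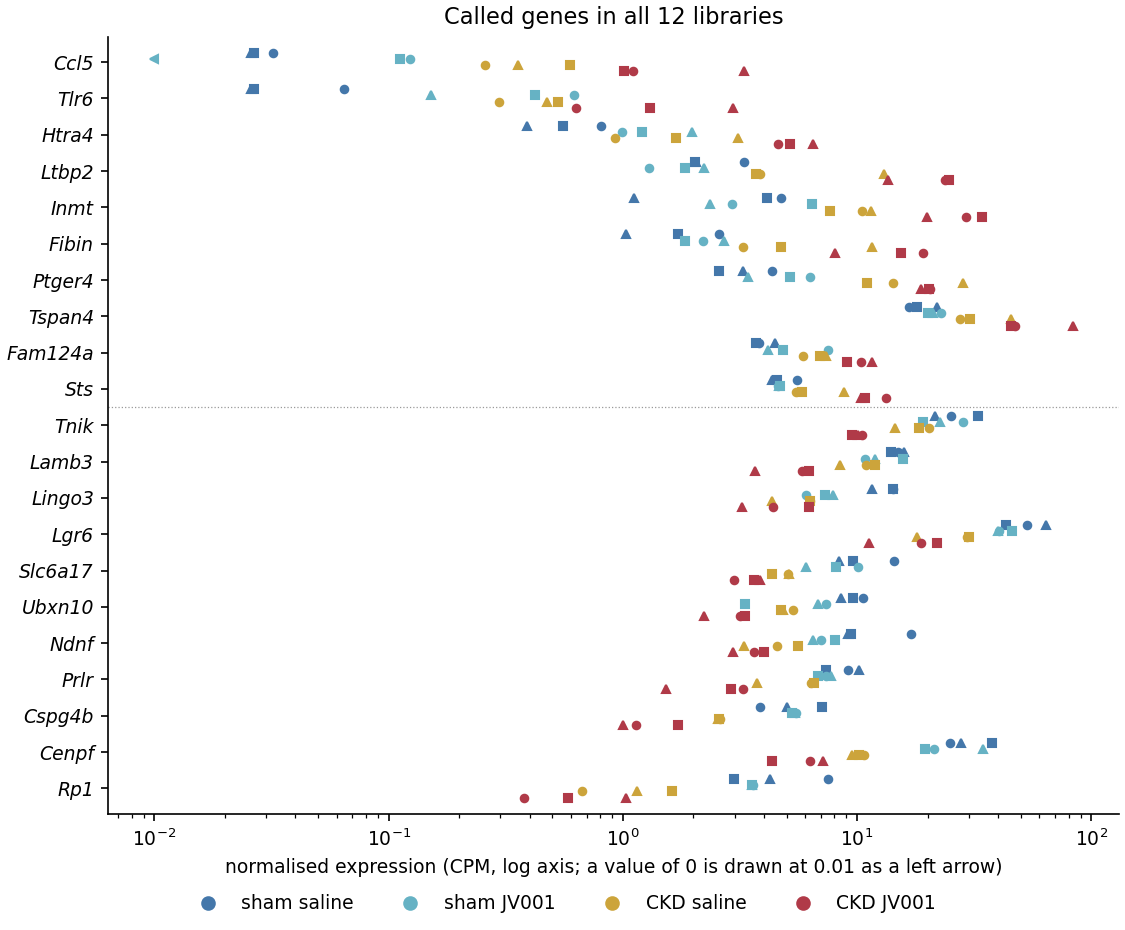
CPM (horizontal log axis) in each of the 12 libraries for the 10 genes that rose (above the dotted line) and the 11 with large decreases that are described in the text; circles, squares and triangles are libraries 1, 2 and 3, and colours are groups. Sham saline and CKD JV001 do not overlap for any gene shown, and CKD saline mostly lies between them, as the choice of these genes favours.

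The mean of CKD saline lay between those of sham saline and CKD JV001 for 33 of the 33 called lower genes and 11 of the 11 called higher genes. These genes were chosen because sham saline and CKD JV001 lay far apart, so another group tends to fall between them. The share over all genes was not counted, and no order of the groups can be read from this. The comparisons with CKD saline share samples with the main comparison, so their values are given side by side. Against sham saline, CKD saline had a median log2 fold change of -0.63 for the called lower genes and 1.70 for the called higher genes. edgeR called 0 of the 44 there (39 at an unadjusted p under 0.05; adjusted p 0.236 to 0.948) and 0 of all 15004 genes (0%), with 743 at an unadjusted p under 0.05. CKD JV001 against CKD saline gave medians of -0.62 and 1.12 for these genes, with 0 of 44 called (33 at an unadjusted p under 0.05; adjusted p 0.276 to 0.776). Sham JV001 against sham saline gave -0.25 and 0.46, with 0 of 44 called and 10 at an unadjusted p under 0.05. In both of these comparisons edgeR called 0 of all 15004 genes (0%). Their shares of all genes at an unadjusted p under 0.05 are not given here, so the 33 and the 10 cannot be set against a background. Each shares a group with the main comparison, so the choice of the 44 can raise such counts. Against sham JV001 the CKD JV001 medians were -1.03 and 2.00. Of the 44, 2 were called there, Cenpf and Tmem82, among 3 genes in all (0.02%), the third being Tmem100. These were named after their values were seen.

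Cell type markers differed widely. Here and for the gene lists that follow, counts of genes apart stand against 23.9% above and 22% below over all genes. Counts at an unadjusted p under 0.05 stand against 38.1% of all genes, and calls by DESeq2 against 25.5%. Calls by voom stand against 6807 of 15004 genes, and calls by limma on FPKM against 2149 of 11624. Many of these counts are at or under such shares. Of 10 fibroblast markers, 10 were above 0 with no overlap between groups, at a median log2 fold change of 2.00 (1.73 without CKD JV001 library 3). Dcn, a small proteoglycan of fibroblasts, was at 199, 128 and 58.2 CPM in sham saline and 519, 529 and 688 CPM in CKD JV001 (log2 fold change 2.17 ± 0.55, adjusted p 0.0510 by edgeR). The treated libraries were all above the sham ones, and the summed fibroblast level was 304 to 1175 CPM in sham saline and 2863 to 3786 CPM in CKD JV001. The 9 markers of activated fibroblasts tested had a median of 2.75 (2.26 without CKD JV001 library 3), 8 of them without overlap, and 1, Ltbp2, rose. Of the 9, 7 had an unadjusted p under 0.05, and DESeq2, voom and limma on FPKM called 6, 8 and 6. Cilp, a matrix protein of these cells, was at 5.82, 4.83 and 5 CPM against 73.5, 71.6 and 37.2 CPM (adjusted p 0.0506). In bulk samples, fewer cells of a type and less RNA per cell cannot be told apart. Their part in the results on other genes was not tested.

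Endothelial markers had a median of 1.49, with 7 of 10 without overlap, and a sum of 486 to 1701 CPM against 2621 to 3013 CPM. Smooth muscle and pericyte markers had a median of 1.79, with 7 of 10 apart, and 1.05 without CKD JV001 library 3. Macrophage and monocyte markers had a median of 2.84 (2.255 without CKD JV001 library 3), with 11 of 12 apart. C1qb, a complement component of macrophages, was at 13.5, 11.7 and 4.71 CPM against 56.1, 51.0 and 115 CPM. The summed macrophage level was 39.8 to 192 CPM in sham saline and 526 to 1044 CPM in CKD JV001. The 8 tested neutrophil markers had a median of 6.44, or 3.22 without library 3. S100a9, a calcium-binding protein abundant in neutrophils, was at 0.836, 0.133 and 0.0777 CPM against 6.11, 6.45 and 140 CPM. Ngp, a neutrophil granule protein, had 0 counts in each sham saline library and 23, 37 and 688 counts in CKD JV001. Of the 8 markers, 2, Ngp among them, had 0 counts throughout sham saline and passed the count filter only through other groups. Fitted fold changes at so few reads depend on the prior count. The filter favours markers that are high outside sham saline, so this median is descriptive only. For 8 neutrophil markers libraries 1 and 2 also lay above each sham saline library, under the same limit. The 6 B cell markers had a median of 3.17, with 6 apart and summed levels of 0.959 to 1.43 CPM against 9.36 to 10.01 CPM.

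The 5 erythroid markers had a median of 2.58 (2.03 without CKD JV001 library 3). The 8 T and NK cell markers had 1.94 (1.54 without that library) with 3 apart. The 5 Schwann cell markers had a median of 0.93 with 2 apart. The 2 adipocyte markers had 0.28 (0.74 without CKD JV001 library 3) with none apart. The 9 atrial markers had a median of -1.03 (-0.16 without sham saline library 1) with 1 apart in each direction, and Myl7, the atrial light chain, varied within sham saline from 12.8 to 492 CPM. The 8 epicardial markers had a median of 0.32 with 0 apart, and 1.92 without sham saline library 1. Of all the marker genes Ltbp2 alone was called. The marker lists without a call by edgeR had these numbers of genes at an unadjusted p under 0.05, called by DESeq2, called by voom and called by limma on FPKM. They were 8, 4, 11 and 4 for ventricular markers, 9, 9, 10 and 9 for fibroblasts, 8, 8, 10 and 7 for endothelium, and 7, 6, 9 and 5 for smooth muscle. For macrophages they were 11, 11, 11 and 10, for neutrophils 8, 0, 7 and 2, for B cells 4, 4, 6 and 1, and for erythroid markers 4, 0, 5 and 0. For T and NK cells they were 1, 1, 4 and 0, for Schwann cells 2, 1, 2 and 0, for atrial markers 3, 3, 2 and 2, for epicardial markers 0, 0, 8 and 0, and for adipocytes 0 in each.

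**Figure D4:**
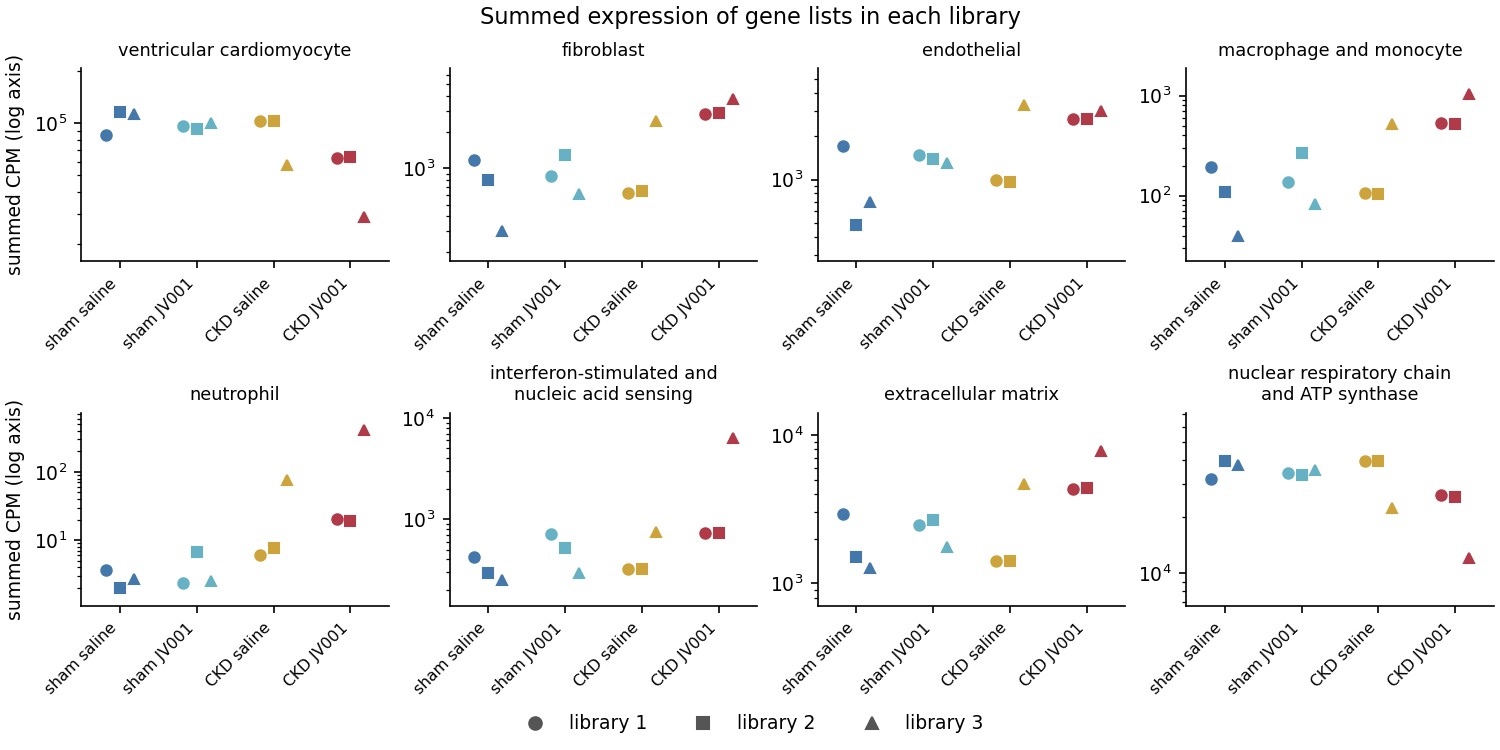
Summed CPM (vertical log axis) of 8 gene lists in each library, by group (horizontal axis), with circles, squares and triangles for libraries 1, 2 and 3. Ventricular and respiratory chain sums are lower in each CKD JV001 library than in each sham saline library, the other 6 sums are higher, and CKD JV001 library 3 is far above its group for neutrophil and interferon genes.

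Genes of the contractile apparatus, calcium cycling and energy supply were lower together, though edgeR called none of them. All 30 contractile and calcium handling genes were below 0, with a median of -0.94 (-0.65 without CKD JV001 library 3), and 26 of the 30 were apart, against 22% of all genes. Ryr2, the calcium release channel of the sarcoplasmic reticulum, was at 1951, 2163 and 2242 CPM in sham saline and 863, 1015 and 543 CPM in CKD JV001 (log2 fold change -1.39 ± 0.29, adjusted p 0.0510 by edgeR). The highest treated library was below the lowest sham saline library, and library 3 was the lowest. Ttn, the giant spring protein of the sarcomere, had a log2 fold change of -1.48 (adjusted p 0.0510), Myh6, the main adult myosin heavy chain of mouse heart, -1.22 (0.0552) and Atp2a2, the calcium pump SERCA2, -1.13 (0.0552). The 12 ventricular markers, which are part of this list, had a median of -0.84, or -0.52 without library 3, with 10 of 12 apart. Of 22 ion channel and connexin genes, 16 were apart below and 1 above, at a median of -0.90. Kcnd2, a channel of the transient outward current, was at 24.7, 23.2 and 26.3 CPM against 9.53, 12.7 and 6.78 CPM (adjusted p 0.0502).

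Fatty acid uptake and oxidation genes had a median of -0.88 (-0.60 without CKD JV001 library 3), with 21 of 25 apart and lower. Acsl1, which activates long-chain fatty acids, had a log2 fold change of -1.18 (adjusted p 0.0515 by edgeR). All 19 citric acid cycle genes were apart and lower, at a median of -0.89 (-0.62). Cs, citrate synthase, was at 1183, 1638 and 1529 CPM against 774, 756 and 401 CPM. Libraries 1 and 2 of CKD JV001 were nearly equal and below each sham saline library, and library 3 was lower still. The 44 nuclear genes of the respiratory chain and ATP synthase were all below 0, 40 of them apart, at a median of -0.70 (-0.41). The 13 protein genes of the mitochondrial genome all had a fold change above 0, at a median of 0.56, but 4 of the 13 were apart, near the 23.9% of all genes. Their summed level in sham saline library 1 (369700 CPM) was above that of each CKD JV001 library (271500 to 350300 CPM). These mitochondrial genes have nuclear copies that can share reads. Glucose uptake and glycolysis genes had a median of -0.73 (-0.45 without CKD JV001 library 3) with 16 of 24 apart below. Pfkfb3, an activator of glycolysis, was the 1 apart above, at 9.74, 6.42 and 8.03 CPM against 33.2, 35.0 and 1328 CPM.

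Most regulators of this metabolism were lower as well: of 16, 13 had a fold change below 0, 10 were apart below and 1 above, at a median of -0.78. Ppara, the fatty acid receptor that drives oxidation genes, was at 86.2, 102 and 114 CPM against 41.9, 46.9 and 29.6 CPM (log2 fold change -1.35 ± 0.26, adjusted p 0.0503 by edgeR). Esrrg and Ppargc1a, an orphan receptor and a coactivator of mitochondrial genes, had log2 fold changes of -1.45 and -1.29 (adjusted p 0.0510). The summed ventricular marker level was lower too, as were most genes of these lists other than those of the mitochondrial genome. Its part was not tested. At an unadjusted p under 0.05 there were 24 of 30 contractile, 17 of 22 channel, 21 of 25 fatty acid, 17 of 19 citric acid cycle, 27 of 44 respiratory chain, 4 of 13 mitochondrial genome, 16 of 24 glycolysis and 11 of 16 regulator genes. The ERR-type sequence TNAAGGTCA, on either strand, was in 0 upstream windows of the fatty acid, citric acid cycle, respiratory chain and regulator genes found in RefSeq (22, 16, 31 and 14 genes) in 1.3% of all promoters and in 0.837% of the genes tested. In the same order as the counts above, DESeq2 called 19, 13, 16, 15, 12, 4, 9 and 9, voom called 27, 18, 21, 19, 34, 10, 20 and 13, and limma on FPKM called 12, 7, 7, 6, 2, 4, 4 and 6.

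Of 19 genes of the hypertrophic and fetal programme, 16 had a fold change below 0 and 3 above. Of them 7 were apart below and 1 above, at a median of -0.51, and edgeR called 0, with 6 at an unadjusted p under 0.05, 5 called by DESeq2, 6 by voom and 0 by limma on FPKM. Nppa, Nppb and Myh7, the textbook genes of this programme, are given although they fall outside the naming rule. Nppa, atrial natriuretic peptide, was at 2922, 356 and 1046 CPM in sham saline and 855, 810 and 454 CPM in CKD JV001 (log2 fold change -1.03 ± 0.66, adjusted p 0.258 by edgeR). Without sham saline library 1 its log2 fold change was 0.024. That library had the highest sum of atrial markers, Nppa among them, at 5927 CPM against 1249 and 2462 CPM in sham saline libraries 2 and 3. Nppb, brain natriuretic peptide, was at 229, 513 and 296 CPM against 345, 348 and 34.4 CPM, and Myh7, the fetal myosin heavy chain, at 194, 512 and 239 CPM against 317, 309 and 47.8 CPM. All 3 overlapped between groups, and library 3 was the lowest treated library for each. Among 13 natriuretic peptide system genes 5 were apart above and 1 below. Npr3, the clearance receptor, was at 22.9, 14.1 and 15.9 CPM against 39.7, 45.5 and 28.9 CPM. Corin, the protease that activates atrial natriuretic peptide, had a log2 fold change of -1.18 (adjusted p 0.0510).

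Most matrix genes lay above the healthy level. Of 38 extracellular matrix genes, 38 had a fold change above 0 and 29 were apart (background 23.9%), at a median of 1.66 (1.40 without CKD JV001 library 3), but edgeR called 0. Of them, 30 had an unadjusted p under 0.05, and DESeq2 called 29, voom 35 and limma on FPKM 21. Postn, periostin of activated fibroblasts, was at 17, 12.4 and 9.28 CPM in sham saline and 58.3, 64.9 and 72.1 CPM in CKD JV001 (log2 fold change 2.34 ± 0.50, adjusted p 0.0510 by edgeR). Timp1, an inhibitor of matrix proteases, was at 0.964, 0.743 and 0.622 CPM against 2.12, 2.44 and 6.78 CPM. Thbs4, a matricellular protein, was at 2.44, 5.70 and 3.63 CPM against 28.5, 33.0 and 17.9 CPM. For each of these the lowest treated library was above the highest sham saline library. Of 20 TGF-beta genes 1, Ltbp2, rose and 13 were apart above, at a median of 1.06. Of the 20, 13 had an unadjusted p under 0.05, and DESeq2, voom and limma on FPKM called 13, 13 and 11. Tgfbr2, the type II receptor, was at 43.6, 29.0 and 27.1 CPM against 73.3, 80.2 and 120 CPM. Endothelial BMP and angiogenic genes had 14 of 23 apart above and 5 below, at a median of 1.39, with Dll4, a Notch ligand of arterial endothelium, at 1.88 and Angpt1, a Tie2 ligand, at -1.19. Of these 23, 18 had an unadjusted p under 0.05, and edgeR, DESeq2, voom and limma on FPKM called 0, 16, 22 and 15. Fibroblast and endothelial marker sums moved with these lists, and their part was not tested.

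Interferon-stimulated genes lay far above the healthy level with all libraries, and their median was much smaller without CKD JV001 library 3. All 41 tested had a fold change above 0 and 39 were apart, at a median of 3.39, or 1.41 without that library, where 39 were still apart (background 28.8% without it). Ifit3, which is induced by interferon and restrains viral RNA, was at 7.91, 6.84 and 2.69 CPM in sham saline and 17.6, 19.2 and 156 CPM in CKD JV001 (log2 fold change 3.47 ± 0.81, adjusted p 0.0510 by edgeR; 1.66 without library 3). Usp18, a brake on the interferon receptor, was at 3.28, 2.68 and 2.38 CPM against 8.14, 8.81 and 47.7 CPM. Libraries 1 and 2 were above every sham saline library for both genes, and library 3 was several times higher. edgeR called 0 of the 41, with 41 at an unadjusted p under 0.05, and DESeq2 called 21, voom 34 and limma on FPKM 16. Macrophage and neutrophil markers moved with the list, and their part was not tested.

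Many promoters of this list hold a sequence of the type known as the interferon-stimulated response element, searched by its core GAAANNGAA on both strands, and so also as TTCNNTTTC. This core and the kappaB-type motif given further on were each shortened by 1 letter after a first search, so both were chosen after seeing the data. It is shown in the upstream 250 bases of Ifit3 (chr19:34583279-34583528, plus strand) and Rsad2 (chr12:26456453-26456702, minus strand) from RefSeq, GRCm38.p6, 5' to 3', with matches in capitals. Rsad2, viperin, was chosen after its values and promoter were seen.
Ifit3: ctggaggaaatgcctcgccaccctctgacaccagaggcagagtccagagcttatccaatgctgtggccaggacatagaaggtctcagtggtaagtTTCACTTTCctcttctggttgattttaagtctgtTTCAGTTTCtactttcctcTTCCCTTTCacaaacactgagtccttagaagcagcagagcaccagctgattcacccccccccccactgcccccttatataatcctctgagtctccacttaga
Rsad2: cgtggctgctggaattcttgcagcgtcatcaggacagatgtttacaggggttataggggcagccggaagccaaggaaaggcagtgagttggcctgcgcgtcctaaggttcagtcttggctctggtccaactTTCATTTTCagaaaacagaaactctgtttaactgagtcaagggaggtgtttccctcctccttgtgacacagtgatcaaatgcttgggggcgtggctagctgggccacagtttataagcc
Ifit3 has 3 matches and Rsad2 has 1. The motif was in 18 of the 31 list members found in RefSeq (58.1%), in 8.18% of all promoters in the table and in 7.49% of the genes tested that were found there. Rsad2 was at 12.5, 6.87 and 6.81 CPM against 27.8, 29.3 and 257 CPM (log2 fold change 3.59 ± 0.91, adjusted p 0.0510 by edgeR). Among called genes the motif occurred in 1 of the 7 that rose and were found in RefSeq and in 5 of the 20 that fell.

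Most antigen presentation genes were also above the healthy level: all 22 had a fold change above 0 and 20 apart, at a median of 2.34 (1.70 without CKD JV001 library 3). Psmb8, an immunoproteasome subunit, was at 15.4, 6.42 and 6.06 CPM against 32.3, 32.2 and 85.7 CPM. H2-DMb1, which loads peptide on class II molecules, was at 0.611, 0.690 and 0.0777 CPM against 3.42, 5.07 and 3.76 CPM, with library 3 between the other treated libraries. Of 29 inflammation and NF-kB genes 26 were apart above and 1, Ccl5, rose, at a median of 3.31, or 1.48 without library 3. Ccl5 passed the count filter only through groups other than sham saline. Of the 29, 27 had an unadjusted p under 0.05, and DESeq2, voom and limma on FPKM called 12, 22 and 7. Selp, the adhesion molecule P-selectin, was at 0.514, 0.159 and 0.726 CPM against 1.87, 2.02 and 450 CPM, and Vcam1, another adhesion molecule, at 15.4, 8.86 and 6.24 CPM against 33.6, 33.2 and 632 CPM. Without library 3 their log2 fold changes went from 8.33 to 2.05 and from 4.52 to 1.72. A kappaB-type sequence, GGGNNTTTC on either strand, was in the upstream windows of 7 of 20 of these genes found in RefSeq (35%), in 4.35% of all promoters and in 4.5% of the genes tested. Acute phase and interleukin-6 family genes had 11 of 15 apart above, at a median of 2.33 (1.44). Saa3, an acute phase protein, had 0 counts in each sham saline library and was at 1.04, 0.398 and 73.1 CPM in CKD JV001, nearly all of it in library 3. It passed the count filter only through groups other than sham saline. edgeR called 0 antigen presentation and 0 acute phase genes, with 21 and 11 at an unadjusted p under 0.05; DESeq2 called 21 and 4, voom 22 and 10, and limma on FPKM 18 and 2.

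**Figure D5:**
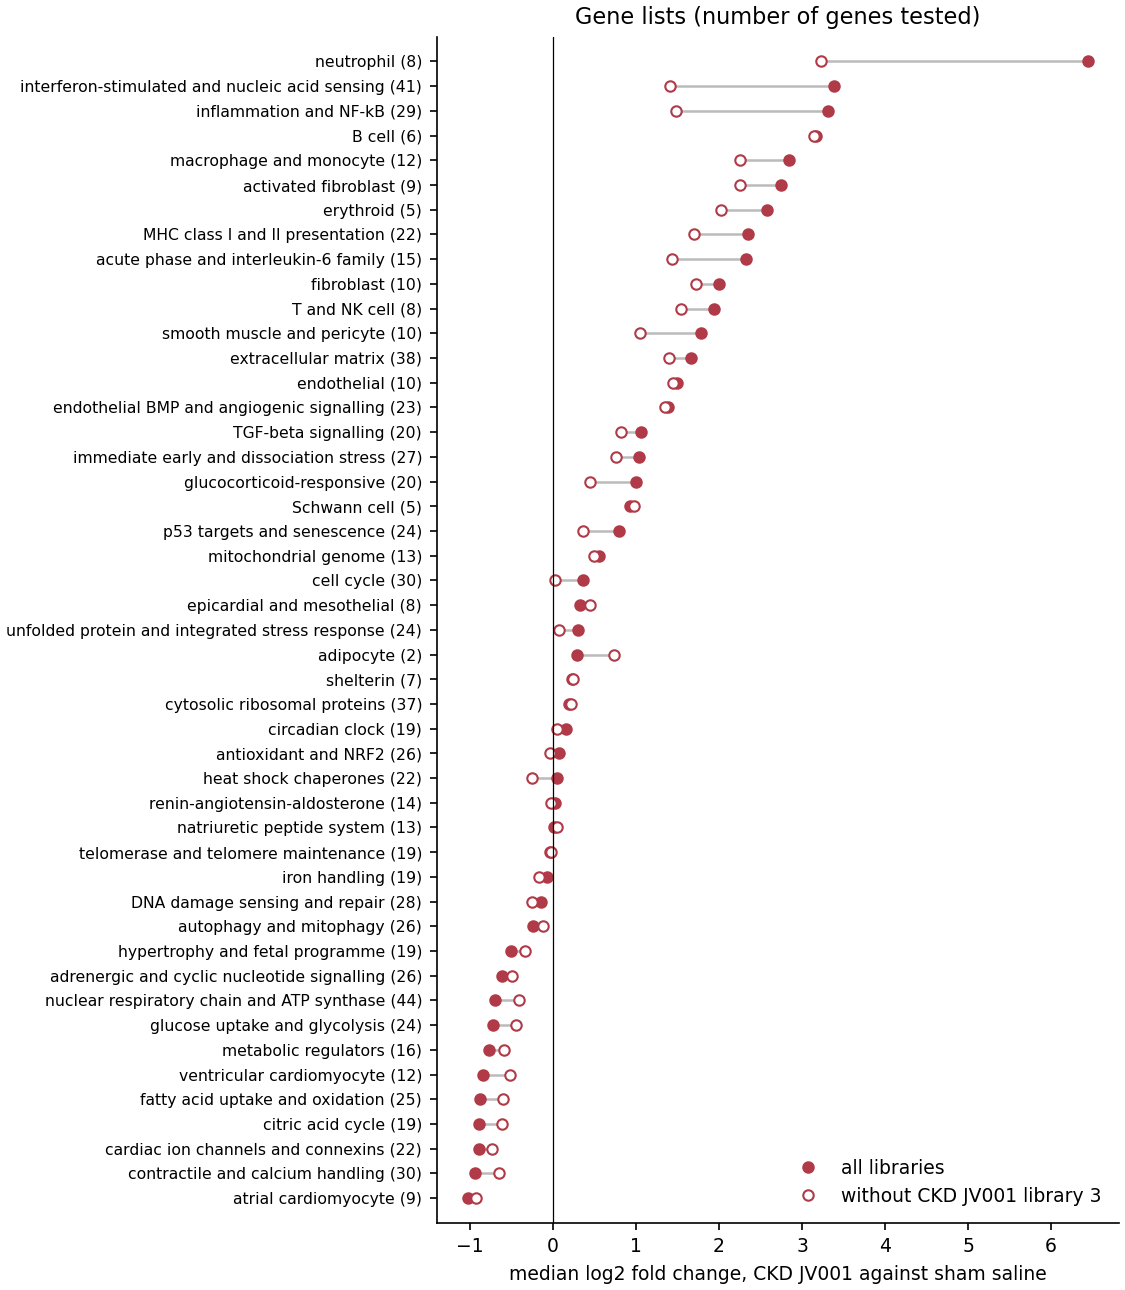
Median log2 fold change of CKD JV001 against sham saline (horizontal axis) for the 47 gene lists (vertical axis, number of genes tested in brackets), with all libraries (filled) and without CKD JV001 library 3 (open). The longest lines join 6.44 to 3.22 for neutrophil markers and 3.39 to 1.41 for interferon genes, and heat shock chaperones cross 0.

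Of the telomere genes, to which the title of the series points, edgeR called none, while DESeq2 called 1 shelterin and 1 telomerase gene. Of the 7 shelterin genes, 2 were apart above and 1 below, near the shares over all genes, at a median of 0.23. Pot1b, which binds the single-stranded end, was at 4.24, 1.80 and 2.10 CPM in sham saline and 4.62, 5.20 and 6.34 CPM in CKD JV001 (log2 fold change 0.99 ± 0.35, adjusted p 0.0712 by edgeR). Its groups did not overlap. Terf1, which binds double-stranded telomeric repeats, was at 3.63, 2.94 and 2.02 CPM against 3.39, 4.40 and 8.95 CPM (log2 fold change 0.96 ± 0.43, adjusted p 0.124), or 0.45 without CKD JV001 library 3. Terf2, which protects chromosome ends from fusion, was at 11.9, 12.3 and 13.0 CPM against 11.8, 12.9 and 12.7 CPM (0.01 ± 0.14, adjusted p 0.964). The groups overlapped for both. Acd, which recruits telomerase, had a log2 fold change of 0.46, Tinf2, which bridges the complex, 0.23, Pot1a 0.06 and Terf2ip -0.15 (adjusted p 0.195, 0.377, 0.838 and 0.411). Tert had too few reads to be tested, with 3, 1 and 4 counts in sham saline and 0 in each CKD JV001 library.

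The 19 tested telomerase and telomere maintenance genes had a median of -0.04 (-0.02 without CKD JV001 library 3), with 2 apart above and 3 below. Tnks, tankyrase, was at 44.7, 57.1 and 45.2 CPM against 33.5, 35.5 and 35.3 CPM (adjusted p 0.0746 by edgeR). DNA damage sensing and repair genes had a median of -0.14 (-0.25 without CKD JV001 library 3), with 3 of 28 apart above and 8 below, the latter near the 22% of all genes. Trp53bp1, a mediator of the double-strand break response, was at 31.1, 35.6 and 31.3 CPM against 23.5, 21.8 and 23.8 CPM, without overlap (log2 fold change -0.51 ± 0.12, adjusted p 0.0510). Among 24 p53 target and senescence genes 11 were apart above and 6 below, at a median of 0.79 (0.36 without CKD JV001 library 3). Plk2, a stress-induced kinase and p53 target, was at 35.1, 26.7 and 24.6 CPM against 71.5, 69.5 and 92.2 CPM, while Mdm2, the ubiquitin ligase of p53, was at 55.0, 57.8 and 65.9 CPM against 45.7, 42.5 and 46.5 CPM. In the shelterin, telomerase, DNA damage and p53 lists, edgeR called 0, and 2, 4, 9 and 12 genes had an unadjusted p under 0.05. DESeq2 called 1, 1, 4 and 8 of them, voom 2, 6, 12 and 13, and limma on FPKM 1, 1, 0 and 3. At an unadjusted p under 0.05 the shares of the shelterin, telomerase and DNA damage lists were below the 38.1% over all genes.

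Other lists held single genes well apart. Nr1d1, the clock repressor REV-ERB alpha, was at 47.7, 60.2 and 59.7 CPM in sham saline and 133, 132 and 141 CPM in CKD JV001 (log2 fold change 1.27 ± 0.25, adjusted p 0.0503 by edgeR). Library 3 was in step with its group here, while the 19 clock genes had a median of 0.15 (0.05 without library 3), with 3 apart above and 1 below. The labels give no time of collection. Among 14 genes of the renin-angiotensin-aldosterone system 4 were apart above and 4 below. Ace, which makes angiotensin II, was at 51.5, 26.1 and 18.5 CPM against 129, 127 and 160 CPM, and Nr3c2, the mineralocorticoid receptor, at 20.02, 17.7 and 27.2 CPM against 11.0, 13.6 and 12.1 CPM. Neither pair overlapped (adjusted p 0.0510 for both). Adrenergic and cyclic nucleotide genes had 15 of 26 apart below and 7 above, at a median of -0.62, and 1, Pde3a, fell; 19 had an unadjusted p under 0.05, and DESeq2, voom and limma on FPKM called 18, 19 and 10. Adra1b, an alpha-1 adrenergic receptor, was at 28.4, 30.02 and 35.1 CPM against 14.6, 17.3 and 7.34 CPM. Of the 19 iron handling genes 5 were apart in each direction, and 1, Slc40a1, fell; 9 had an unadjusted p under 0.05, and the same tools called 8, 11 and 6.

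Stress responses differed by list. Immediate early and dissociation stress genes had a median of 1.04, with 13 of 27 apart above and 3 below, and Egr1, an immediate early transcription factor, was at 368, 459 and 265 CPM against 662, 658 and 772 CPM. Glucocorticoid-responsive genes had a median of 1.00 (0.45 without CKD JV001 library 3), with 9 of 20 apart above. Fkbp5, a chaperone induced by glucocorticoids, was at 16.0, 9.31 and 8.32 CPM against 19.5, 21.2 and 243 CPM, and its log2 fold change went from 3.08 to 0.86 without that library. Heat shock chaperones had a median of 0.05, or -0.25 without it. Hsph1, a chaperone of this list, was at 90.6, 86.7 and 84.1 CPM against 77.0, 73.8 and 713 CPM, so that libraries 1 and 2 lay below and library 3 above the sham saline range. Unfolded protein and integrated stress genes had a median of 0.30 (0.07), with 5 of 24 apart above and 1 below. Antioxidant genes had a median of 0.08 (-0.03 without library 3) with 8 of 26 apart above and 5 below, autophagy and mitophagy genes -0.24 (-0.12) with 11 of 26 apart below, and cytosolic ribosomal protein genes 0.20 with 20 of 37 apart above and 1 below. The shares apart in the antioxidant list, and the share apart above in the unfolded protein list, were near those over all genes (23.9% above and 22% below).

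For the natriuretic peptide list and the clock, renin-angiotensin-aldosterone and stress lists, in which edgeR called 0, the genes at an unadjusted p under 0.05 and those called by DESeq2, voom and limma on FPKM were as follows. The clock list had 5, 5, 2 and 1, the renin-angiotensin-aldosterone list 9, 7, 8 and 4, and the natriuretic peptide list 6, 6, 8 and 5. The immediate early list had 16, 14, 15 and 6, the glucocorticoid list 10, 6, 11 and 3, and the heat shock list 4, 0, 9 and 0. The unfolded protein list had 10, 6, 9 and 2, the antioxidant list 10, 8, 15 and 6, the autophagy list 7, 7, 8 and 4, and the ribosomal list 13, 13, 17 and 9. At an unadjusted p under 0.05 the clock, heat shock, autophagy and ribosomal lists were below the 38.1% over all genes. The unfolded protein and antioxidant lists were near it.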

How the data were processed

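Polyadenylated RNA was sequenced, and the deposited counts are whole reads per gene symbol, not normalised by the authors, in 1 table of 12 libraries. Per the submitters' processing notes, fastp, HISAT2, HTSeq and the build GRCm39 were used; versions, annotation and strand setting: not given in the sources used here, so overlapping, antisense and near-identical genes (haemoglobin genes, or Cspg4b, whose name marks a paralog) are uncertain. The deposited FPKM values, made by the authors from these counts, served for 3 alternatives.

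Group initials and number tied each column to its label, with C read as CKD saline. The test was edgeR 4.0.16 (R 4.3.3): TMM factors, filterByExpr with a minimum count of 10, quasi-likelihood F test, all 12 libraries in a fit of 4 group means, p adjusted by Benjamini-Hochberg over 15004 genes, threshold 0.05. CPM values use TMM, log2 CPM a prior count of 2, and a fold change is CKD JV001 against sham saline. SE is of the log2 fold change. Genes are apart where the values of the groups do not overlap. Replicate libraries differed by more than sampling noise, by the least between libraries 1 and 2 of CKD saline and between libraries 1 and 2 of CKD JV001.

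Alternatives were DESeq2 1.42.0, limma 3.58.1 (voom with library weights; on log2 FPKM with a pseudocount of 1 or 0.1, where the mean FPKM reached 0.5), other factors and filters, and each library left out. The comparison, the 47 gene lists and the naming rule were chosen with earlier results of these data known, and many lists share genes. The rule named up to 12 called genes per direction by fold, apart and with at least 1 CPM in the higher group, up to 10 per direction called in each leave-one-out fit, up to 4 per list by adjusted p, the shelterin genes and Tert. Provisional names (Gm and a number, Rik, -ps, LOC) were left out, and 1 gene that the rule named is not reported here. Promoters were matched by symbol to the RefSeq table of GRCm38.p6, which held 11822 of the genes tested and 27 of the 44 called; no coordinates of that build were joined to the counts.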

Additional observations from a re-analysis of the deposited data

How the results depend on the processing

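Counts of calls are given as genes higher and lower in CKD JV001, against 11 and 33. They were 526 and 478 with RLE factors, 1018 and 541 with no filter, 939 and 815 with a stricter filter (3 libraries with 1 CPM or more, and 10 reads on average), 23 and 70 with a robust spread, and 510 and 494 with mitochondrial and haemoglobin genes left out. DESeq2 gave 2498 and 1534, voom with library weights 3805 and 3002, limma on log2(FPKM + 1) 1506 and 643, on log2(FPKM + 0.1) 1475 and 630, and without a filter 105 and 53. Fits of only the 2 groups called 0 and 0 (4769 genes at an unadjusted p under 0.05). Leaving out 1 library gave 0 to 1895 higher and 0 to 954 lower. Chosen after seeing the data, thresholds of 0.06 and 0.1 gave 1386 and 1038, and 2631 and 2067, and leaving out library 3 of both CKD groups gave 1767 and 1675. The cause of these moves was not tested. The largest adjusted p of the 44 genes was 0.0498.

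The labels state no pairing. Deviations from the group mean correlated at -0.227, 0.122 and -0.203 between same-numbered libraries, and not each library correlated best with its own number. With 3 libraries per group and only the 2 groups compared, this check cannot show that replicates were unpaired. A fit with the replicate block called 0 higher and 0 lower, with 5467 genes at an unadjusted p under 0.05. Of the genes named, these changed sign. No called gene did, which for the fits without 1 library follows from groups that do not overlap. Leaving out 1 library, the log2 fold change ran from -0.21 to 2.22 for Hsph1, from -1.47 to 0.024 for Nppa, from -0.82 to 0.053 for Myh7, from -0.87 to 0.0023 for Nppb, from -0.11 to 0.17 for Pot1a and from -0.021 to 0.067 for Terf2. Without library 3 of both CKD groups Hsph1 was -0.21 and Terf2 -0.0056. With voom Hsph1 was -0.11, Nppa 0.0092 and Terf2 -0.018. Of the 47 list medians, 12 moved by more than their spread without CKD JV001 library 3 and 6 without sham saline library 1. The medians that changed sign in any alternative were those of the adipocyte, epicardial, clock, antioxidant, heat shock, iron, renin-angiotensin-aldosterone and telomerase lists. Depth limits Ccl5, Tlr6, Ngp, Saa3 and Tert, whose sham saline or CKD JV001 counts were near 0.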
